A study of Homo sapiens with 3 samples.

Results

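The transcript described here is that of NUCKS1, in 3 replicates of an easyCLIP experiment on HNRNPA0. The method bonds RNA to protein with UV light, isolates the protein and sequences the short RNA fragments that stay attached. Its members are the peaks whose deposited name carries the Ensembl gene ID ENSG00000069275, which numbered 21 of 15661 peaks in replicate 1, 18 of 15486 in replicate 2 and 23 of 17791 in replicate 3. All of the 62 peaks lay on the minus strand of chromosome 1 inside the RefSeq interval of NUCKS1, from 205712822 to 205750182 (hg38), which spans 37361 bp. The gene was chosen by the number of its recurring regions and by its read numbers in these same lists, so its values are given as a description and no test was made. The comparison asks which parts of the NUCKS1 RNA were recovered with HNRNPA0, and how alike the replicates were.

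The cells were HEK293T, a line of human embryonic kidney origin, labelled wild type. All 3 replicates carried the same transfected vector for HA-tagged HNRNPA0, used at 750 ng for a 15 cm plate. They were irradiated at 254 nm with 0.3 J per square cm and were isolated with anti-HA beads. RNase was used at 0.02 U per uL for 3 min in each. The replicates formed 1 group. No control library was used here and RNA levels were not measured, so binding and the abundance of the NUCKS1 RNA cannot be told apart. Of 7 genes that HEK293T cells are known to express, VIM, NEFM, INA and CDH2 (4 genes) held a peak and KRT8, KRT18 and NEFL did not, while none of 14 genes typical of other cell types, such as ALB and PTPRC, held one. Of all 20056 protein-coding genes 28.1% held a peak in any list, and a gene without a peak may still be expressed. Summed read numbers in nuclear-encoded peaks came to 100038, 99141 and 114203 in replicates 1, 2 and 3. Over all peaks, including mitochondrial ones, the sums were 268608, 268445 and 221013, so replicate 3 differed in its make-up. The read number is the whole number at the end of a peak's name, taken here as the reads in that peak.

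NUCKS1 is a nuclear protein that associates with chromatin and is phosphorylated by casein kinase 2 and cyclin-dependent kinases. It is related in sequence to RAD51AP1 and has been linked to homologous recombination, the repair of DNA breaks by copying an intact strand, and to the control of cell cycle genes. HNRNPA0 belongs to the hnRNP A/B family of RNA-binding proteins, which bind nuclear and messenger RNA and influence splicing, stability and translation. Proteins of this family have been described as partners of RNA G-quadruplexes, structures built from stacked guanines. The nucleotide sequences of the peaks were not used here, so nothing is said of guanine content or motifs.

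NUCKS1 had the highest summed read number of any named protein-coding gene in each of the 3 lists. The sums were 1953, 1652 and 1999 in replicates 1, 2 and 3, a mean of 1868 ± 188 (SD, n = 3). The next highest named gene had 509 in replicate 1, SCD, the fatty acid desaturase gene, and 708 and 724 in replicates 2 and 3, HSP90AA1, a chaperone gene. These 2 genes are named because they stood next in the order, so they were chosen after their values were seen. NUCKS1 held 1.95%, 1.67% and 1.75% of the nuclear-encoded read numbers. Of the read numbers of all peaks it held 0.727%, 0.615% and 0.904%, with replicate 3 rather than replicate 1 the highest. Per length, the summed read number was 52.3, 44.2 and 53.5 per kb of gene, which ranked 2, 3 and 1 among the 4055, 4041 and 4356 named protein-coding genes with a peak in the respective list. The median of those genes was about 0.2 per kb (0.207, 0.202 and 0.198). Neighbouring peaks can hold the same reads, so these sums are not counts of molecules and carry no counting interval.

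No NUCKS1 peak was weak by the standard of the lists. Read numbers ran from 38 to 168 in replicate 1 with a median of 90, from 42 to 163 in replicate 2 with a median of 86.5, and from 42 to 172 in replicate 3 with a median of 75. By its highest read number NUCKS1 ranked 3 among the named protein-coding genes in each list. The median of nuclear-encoded peaks outside NUCKS1 was 4 in each list, and the lowest value of any peak was 3. Of those outside peaks 98.9%, 99.0% and 99.1% had a read number below the lowest in NUCKS1. The largest deposited p-value of any NUCKS1 peak was 2.84e-38 in replicate 1, 4.04e-42 in replicate 2 and 8.74e-37 in replicate 3.

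The weakest peaks of NUCKS1 had higher read numbers than those of any other protein-coding gene in the comparison that follows. Among 126 named protein-coding genes with 10 or more peaks in every replicate, the lowest read number of NUCKS1 averaged 40.7 ± 2.31 (SD, n = 3). Of the other 125 genes, 83 had a lowest read number of 3 in all replicates. SCD came closest, with lowest values of 23, 26 and 24. Among the 131 named genes of any kind with 10 or more peaks in every replicate, the non-coding RNA gene XIST was higher. Its lowest read number averaged 65 and its summed read number 9626, and it was named after its values were seen. Across the 126 protein-coding genes, the lowest read number was higher where the summed read number was higher (Spearman rho = 0.67). Genes are not independent replicates, both values come from the same peaks, and no test was attached. No part of NUCKS1 with fewer than 38 reads was listed as a peak, although far lower read numbers were listed in most other genes.

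**Figure D1:**
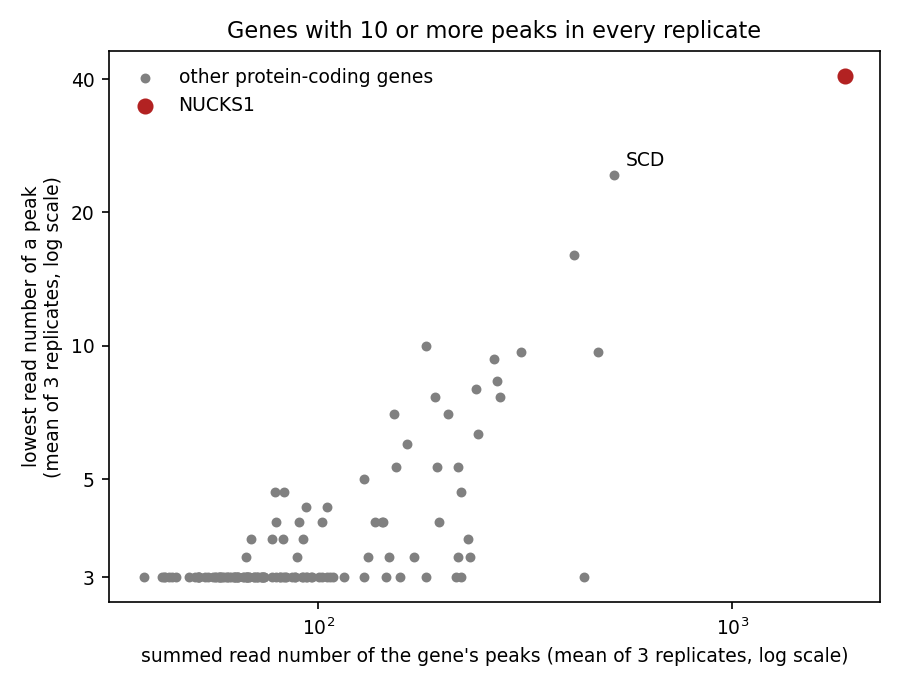
Each point is a named protein-coding gene with 10 or more peaks in every replicate. The x axis is the summed read number of its peaks and the y axis the lowest read number of any of its peaks, both as means of 3 replicates on log scales. NUCKS1 (red) lies at 1868 and 40.7, above and to the right of all other genes shown, and SCD is the next highest on the y axis.

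All peaks lay in the part of the gene toward its 3' end. Measured from the 5' end, which is position 205750182 on this strand, the first 22382 nt held no peak in any replicate. That is 59.9% of the gene, and it includes the interval of a small nucleolar RNA locus from 205731221 to 205731352, which held no peak either. The peaks then ran from 205727800 to 205713393, and the last 571 nt of the gene were again without a peak. No plus-strand peak and no peak of another gene ID lay in the interval.

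Within that zone the read numbers were spread unevenly along the gene. In steps of 10% of the gene, the last step took 44.6% ± 6.11 of the summed read number and the step before it 14.9% ± 1.88 (SD, n = 3). The part from 70% to 80% took 30.5% ± 6.83 and that from 60% to 70% took 9.32% ± 2.18 (SD, n = 3). The part from 50% to 60% took 0.700% ± 1.21 (SD, n = 3), all from 1 peak of replicate 3. The final 20% together held 61.2%, 54.6% and 62.7% in replicates 1, 2 and 3, or 59.5% ± 4.32 (SD, n = 3). Among the 131 named genes of any kind with 10 or more peaks in every replicate, the median share in the final 20% was 33.3%, and 30 genes had a larger share than NUCKS1. When touching peaks were joined into runs and each run kept only its highest value, the NUCKS1 share was 66.9%.

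As a share of the gene, the peak-free 5' part of NUCKS1 was long beside that of those genes. The median over the 131 genes was 2.17% of the gene, and 3 genes had a larger free share than NUCKS1, namely DCP2 with 80.5%, SCD with 78.9% and ROBO1 with 64.8%. These 3 are named because of the small count and were chosen after their values were seen. In nt, 14 of the 131 genes had a longer free part than NUCKS1. Free means without a listed peak, and the lowest listed read number differed between genes. It averaged 40.7 in NUCKS1 and was 3 in all replicates in 83 of the other 125 protein-coding genes. A 5' part with few reads could thus count as free in NUCKS1 and not in those 83, and this was not matched. Gene intervals were taken whole, and no exon annotation was used here.

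**Figure D2:**
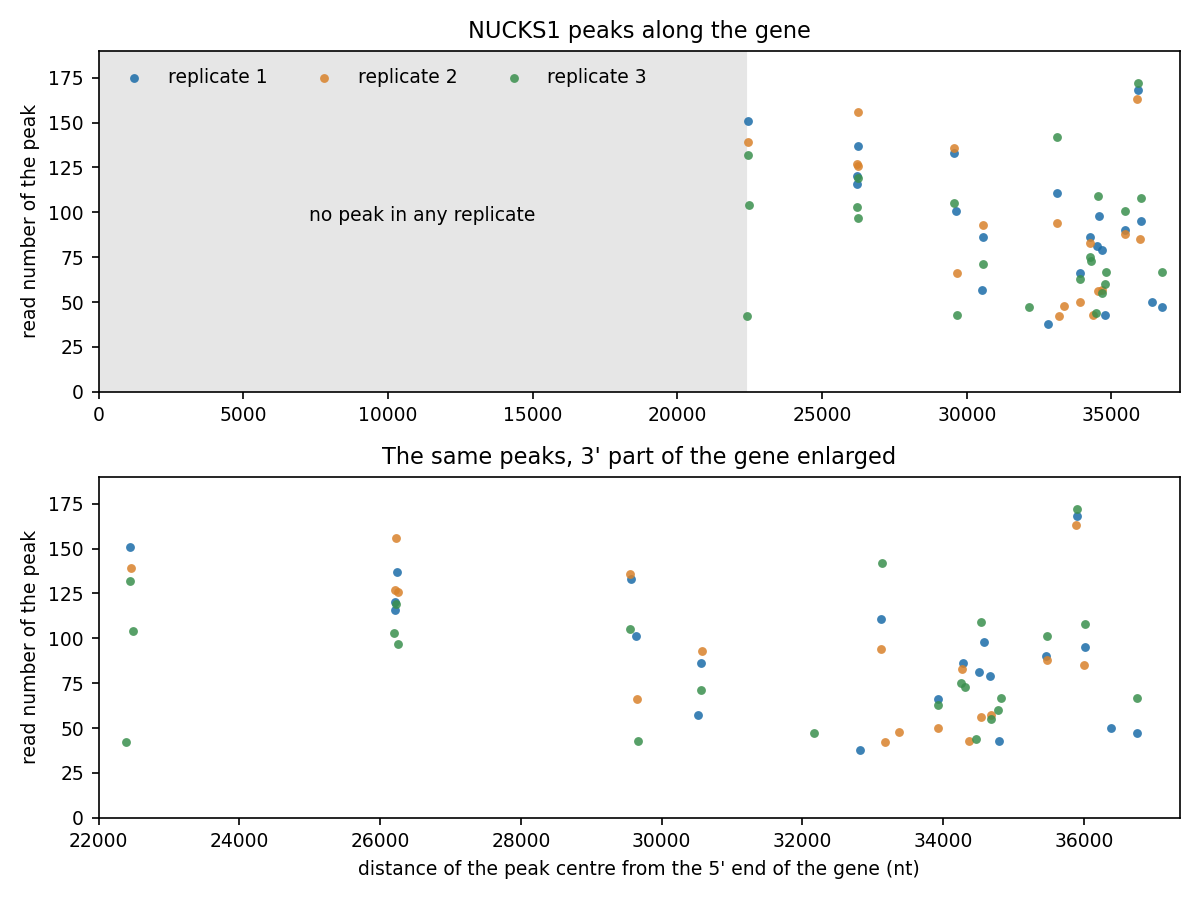
Each point is a NUCKS1 peak, with the distance of its centre from the 5' end of the gene in nt on the x axis and its read number on the y axis, in 3 colours for the 3 replicates. The upper panel spans the whole gene and shades the first 22382 nt, which held no peak, and the lower panel enlarges the rest. Points of the 3 replicates form the same columns between 22382 and 30507 nt and lie densely from 32144 nt on.

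Same-strand peaks were merged across the lists wherever they shared at least 1 bp. This gave 21 regions for NUCKS1, and 12 of them (57.1%) held a peak of every replicate, beside 6.23% of all 38104 regions of the series. Another 2 regions held peaks of 2 replicates and 7 held a peak of 1. The count of 12 ranked NUCKS1 at 4 among the gene IDs with such a region, a place it shared, and 21.6% of 6583 gene IDs had at least 1. Regions that touch end to end joined into 17 blocks, of which 10 held all replicates. The peaks in regions found in all replicates numbered 17, 16 and 18, which is 81.0%, 88.9% and 78.3% of the NUCKS1 peaks and 90.9%, 94.5% and 85.7% of their summed read number. For all peaks of each list the share was 17.2%, 17.2% and 15.1%. For nuclear-encoded peaks outside NUCKS1 with a read number of 38 or more it was 93.4%, 92.8% and 91.8%.

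The strongest region was also the most even between replicates. It lay from 205714116 to 205714367, 1294 nt from the 3' end of the gene, and its highest read numbers were 168, 163 and 172 in replicates 1, 2 and 3, a mean of 168 ± 4.51 (SD, n = 3). In every replicate the region consisted of 2 peaks that touch, the stronger being the one on the 5' side. The place where those peaks met was 205714207 in replicate 1, 205714219 in replicate 2 and 205714208 in replicate 3. Of the 252 nt in the region, 201 were covered in all lists.

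The next 3 regions by read number lay farther upstream, one after another. The one nearest the 5' end of the gene, from 205727700 to 205727800, had highest read numbers of 151, 139 and 132, a mean of 141 ± 9.61 (SD, n = 3). The region from 205723926 to 205723981 had 137, 156 and 119, or 137 ± 18.5 (SD, n = 3). The region from 205720584 to 205720653 had 133, 136 and 105, or 125 ± 17.1 (SD, n = 3). The ranges of these 3 regions overlap. Within each replicate the region ending at 205720653 was the lowest of them, while the order of the other two changed between replicates. Every value of the strongest region was above all of theirs.

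The fifth region lay from 205716970 to 205717123, with 111, 94 and 142 and a mean of 116 ± 24.3 (SD, n = 3). Replicate 3 was the highest there, while it was the lowest of the replicates in each of the 3 regions upstream. The other 7 regions found in all replicates had mean highest read numbers from 59.7 to 93.0. The spread was widest in the region from 205720501 to 205720583, with 101, 66 and 43, where the SD was 41.7% of the mean. Over the 12 regions the median of that share was 13.6%.

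Regions that not every replicate shared were among the weaker ones. The 7 found in 1 replicate had read numbers from 38 to 67, and the 2 found in 2 replicates had values from 43 to 67. Some regions found in all replicates reached just as low, such as the value of 43 in the region from 205720501. Across the 12 shared regions, the Spearman rho of the highest read number was 0.85 for replicates 1 and 2, 0.78 for 1 and 3, and 0.73 for 2 and 3. Regions are not replicates, and the 3 libraries were pooled after the first ligation, so these are descriptions without a test.

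**Figure D3:**
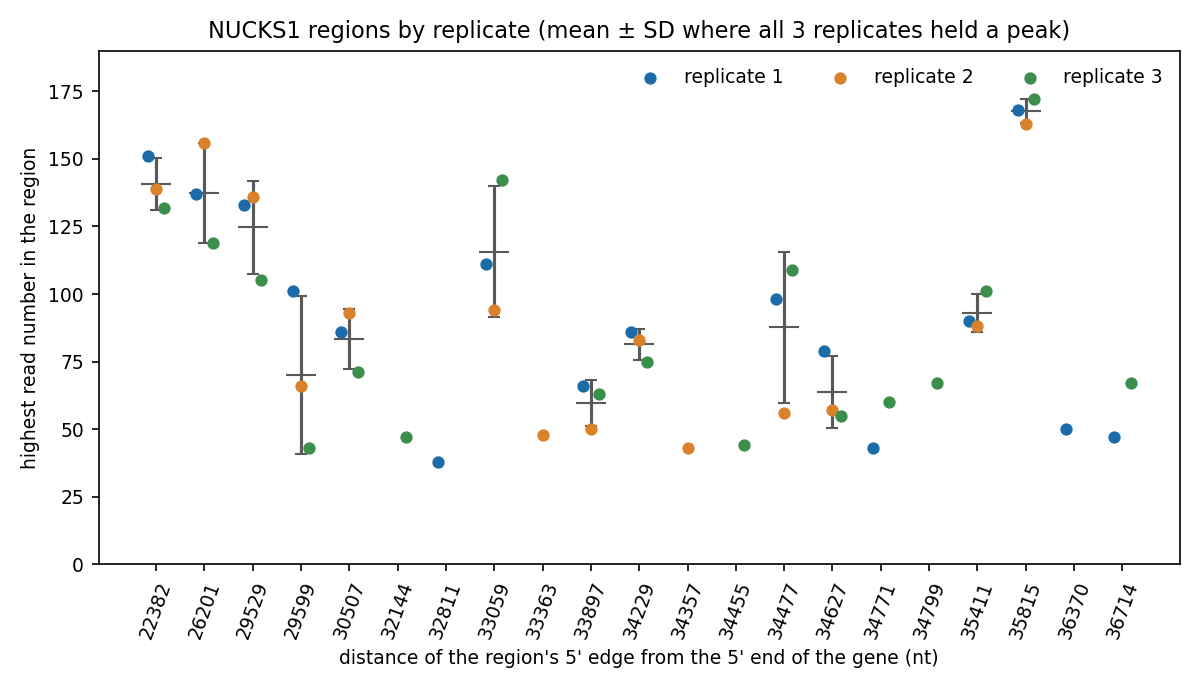
The 21 NUCKS1 regions are ordered along the x axis by the distance of their 5' edge from the 5' end of the gene in nt, and points give the highest read number in each replicate. Grey marks show mean ± SD (n = 3) for the 12 regions with a peak of every replicate. The region at 35815 nt holds the 3 highest values, from 163 to 172, and regions with 1 or 2 points stay at or below 67.

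A NUCKS1 peak of one list met a peak of a second list in 83.3% of cases, as the mean of 6 ordered pairs that ran from 73.9% to 90.5%. The same average was 26.0% for all peaks, and 94.4% (93.4% to 95.8%) for nuclear-encoded peaks outside NUCKS1 with a read number of 38 or more. When 50% of both peaks had to be shared, the NUCKS1 value was 61.9%.

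Overlap did not mean equal edges in most regions. Of the 24 outer edges of the 12 shared regions, 4 lay at the same nucleotide in every list, and over all 24 the median spread between the lists was 16 nt and the largest 61 nt. An edge was counted as the same only when the positions were identical. The 4 identical edges belonged to 3 regions (25.0% of 12), beside 6.62% of the 2372 regions of the series that held all replicates. The share over regions with read numbers like those of NUCKS1 was not taken.

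The identical edges faced each other across the longest gaps between blocks. The region from 205727700 shared its 3' edge, the region from 205723926 to 205723981 shared both, and the region ending at 205720653 shared its 5' edge. Between them lay 3718 nt and 3272 nt without a peak, the 2 longest such gaps inside the peak-bearing part of the gene, and both were bounded by identical edges on either side. The other gaps there ran from 32 to 1518 nt and none of them was bounded by an identical edge. Regions with both edges identical made up 0.211% of the 2372. Whether any of the identical edges is an exon boundary was not tested, because no exon annotation was used here.

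The 56 nt region from 205723926 to 205723981 was covered completely in each replicate. Each list divided it into 3 touching peaks, with read numbers of 137, 120 and 116 in replicate 1, 126, 156 and 127 in replicate 2, and 97, 119 and 103 in replicate 3, from low to high position. The inner borders lay at 205723969 and 205723975 in replicate 1, 205723930 and 205723975 in replicate 2, and 205723937 and 205723976 in replicate 3. Neither inner border was identical in all replicates, though the one at 205723975 was the same in replicates 1 and 2. Both outer edges were identical in every replicate. The p-values of the 3 peaks were the smallest of the gene in replicates 1 and 2, down to 1.93e-185 and 4.79e-200. In replicate 3 the smallest, 4.04e-160, belonged to a peak of 3 nt that starts at 205727700.

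The 3 regions with an identical edge held 33.6%, 41.4% and 35.1% of the summed read number of NUCKS1, or 36.7% ± 4.12 (SD, n = 3). These shares add up touching peaks, which can hold the same reads, and were not taken by runs. The region from 205723926 had sums of 373, 409 and 319 but highest read numbers of 137, 156 and 119. Peaks in the 3 regions had a median read number per nt of peak of 3.11, 3.47 and 3.05 in replicates 1, 2 and 3. For the other peaks of the gene it was 1.19, 1.12 and 1.28. The narrowest peaks of the gene, of 6, 5 and 3 nt in replicates 1, 2 and 3, lay in these regions and touched others. The values per nt of peak are therefore not a density over a whole region. Within each list, p-values followed the read number more closely than the width. The Spearman correlation across peaks of p with read number was -0.95, -0.92 and -0.90, and with width -0.24, -0.14 and -0.13, over 21, 18 and 23 peaks that share 1 gene and library.

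**Figure D4:**
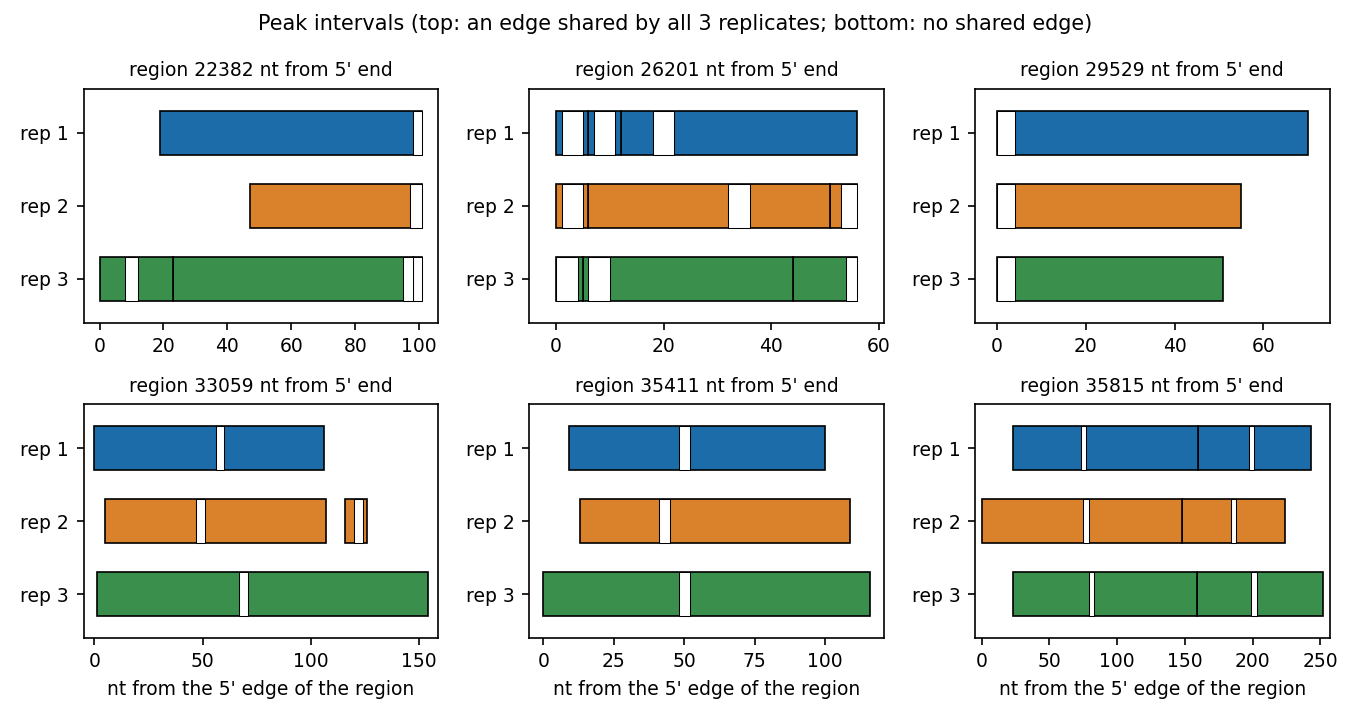
Coloured bars are NUCKS1 peaks in replicates 1, 2 and 3 (top to bottom), drawn in nt from the 5' edge of the region, black lines separate touching peaks, and white boxes mark the deposited short stretch in each peak. The top row shows the 3 regions with an edge shared by every replicate, and the bottom row the 3 strongest regions without one. In the top row the bars end in line at the shared edges, including both ends of the region at 26201 nt, while the other outer ends differ. The bottom row was chosen for having no shared edge, and no outer end is in line in all 3 replicates.

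Each deposited peak also carries a short stretch inside it, given by the last 2 columns, whose meaning was not given in the sources used here. In NUCKS1 the stretch was 4 nt long in 57 of 62 peaks and shorter in 5. It lay near the middle of the peak, with median places at 50.0%, 50.2% and 45.5% of the width from the 5' edge. In 10 of the 62 peaks the stretch reached an edge of the peak, and all 5 of the shorter ones did so. Those 10 were among the 17 peaks in regions with an identical edge, and none of the other 45 peaks had a stretch at its edge. Over all peaks of the lists 3.97% did, and over the nuclear-encoded peaks outside NUCKS1 with a read number of 38 or more 1.74% did. None of these shares was matched for peak width. The narrowest NUCKS1 peaks lay in the regions with an identical edge, and a peak of 3 nt in replicate 3 was filled by its stretch.

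The stretches coincided between replicates in 5 of the 12 shared regions, where at least 1 nucleotide belonged to a stretch in every list, beside 5.61% of the 2372 regions of the series. Those 2372 regions were not matched to NUCKS1 by read number. In the region ending at 205720653 the stretch covered 205720650 to 205720653 in each of the 3 lists. In the region from 205727700 each list had a stretch that began at 205727700. In replicate 3 that stretch belonged to the 3 nt peak at the edge, and the stretch of the strongest peak began at 205727703. In the region from 205716224 to 205716285 it started at 205716249, 205716250 and 205716251, well inside the peak. For the strongest peak of each shared region, the centres of the stretches lay within 0 to 55 nt of each other, with a median of 11.5 nt.

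Touching peaks were common and their number differed between lists. Of the NUCKS1 peaks 12, 5 and 14 touched another, and joining them left 14, 15 and 15 runs in replicates 1, 2 and 3. The number of peaks per replicate, 20.7 ± 2.52, became 14.7 ± 0.577 runs, and the summed read number with each run counted at its highest peak became 1304, 1314 and 1368 (SD, n = 3). In number and in summed read number, the replicates were thus closer to each other by runs than by peaks. The mean overlap between lists was 82.9% for runs and 83.3% for peaks. One example was the block from 205715482 to 205715727, which held 3 peaks in replicates 1 and 3 and 2 peaks in replicate 2.

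The genes beside NUCKS1 on the chromosome held few or no peaks. On its 3' side SLC45A3, a gene of a solute carrier protein, held none, and ELK4, a transcription factor gene, held 1, 1 and 5 peaks with highest read numbers of 3, 3 and 6. On its 5' side RAB29, the gene of a small GTPase, held 0, 1 and 1 with read numbers of 9 and 6, and SLC41A1, a magnesium transporter gene, held none. Within 20000 nt past the 3' end of NUCKS1 no peak was listed. The peaks of NUCKS1 thus did not go on past the 3' end of its RefSeq interval.

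Genes for partners of NUCKS1 and for homologous recombination formed the first of the lists. Of 19 such genes 12 held a peak, beside 28.1% of the 20056 protein-coding genes. A region found in all replicates was held by 4 of the 19, namely RAD51AP1, CDK1, CDK2 and SKP2 with 1 each, beside 6.02% of all protein-coding genes. The median was 0 regions, both over the list and over the 5636 protein-coding genes with a peak. RAD51AP1, the relative of NUCKS1, had highest read numbers of 7, 5 and 6. SKP2, an ubiquitin ligase subunit that acts in the cell cycle, had 10, 16 and 20. CSNK2A1, the gene of a catalytic subunit of casein kinase 2, had 8, 11 and 10 but no region found in all replicates, and BRCA1 had 11, 10 and 6 peaks with none either.

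Genes for other abundant chromatin and acidic nuclear proteins formed the other list. Of 20 genes 19 held a peak and 14 held a region found in all replicates, beside the same 28.1% and 6.02% of all protein-coding genes. The median over the list was 2 regions. NCL, the gene of nucleolin, had 8 and highest read numbers of 76, 91 and 57. PTMA, the gene of prothymosin alpha, had 6 and highest read numbers of 75, 58 and 59, and NPM1, a nucleolar histone chaperone gene, had 6 and 39, 52 and 28. HMGB1, a DNA-bending protein gene, had 3 and read numbers of 11, 11 and 7, and HMGN4 held no peak.

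Per length, NUCKS1 and PTMA stood together. The summed read number per kb of gene was 50.0 ± 5.04 for NUCKS1 and 54.4 ± 10.3 for PTMA, whose replicates at 65.8, 51.5 and 46.0 overlap those of NUCKS1 (SD, n = 3). NCL followed with 33.5 ± 7.76, and its highest replicate, at 42.4, was below the lowest of NUCKS1. NPM1 had 10.1 ± 2.23, and the other genes of the list were below that. This scale uses the whole gene with introns, and so sets short and long genes on unequal terms.

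By number of peaks and highest read number, the genes most like NUCKS1 were EIF4G2, CBX5, SCD, SERBP1 and SRSF3, in that order. Likeness was the distance over 6 values, the log2 number of peaks and log2 highest read number in each of 3 replicates, scaled to an SD of 1 over the 131 genes. EIF4G2, a translation initiation factor homologue gene, was nearest at 2.55, beside a median of 6.54 over the genes compared. None of the 5 reached the highest read number of NUCKS1: EIF4G2 had 63, 60 and 79, CBX5, a heterochromatin protein gene, 56, 62 and 48, and SCD 59, 107 and 84. In CBX5 the final 20% of the gene held 89.3% of the read numbers and the first 56.9% of the gene was free of peaks. In SCD these values were 86.6% and 78.9%. In SRSF3, a splicing factor gene, the final 20% held 0%, and in EIF4G2 and SERBP1 it held 30.9% and 39.1%.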

How the data were processed

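RNA crosslinked to HA-tagged HNRNPA0 was analysed from 1 deposited peak list per replicate (n = 3), so peaks were called per sample. Per the submitters' processing notes, positions refer to hg38 and the tools included deepTools and bedtools. Aligner and caller are not given in the sources used here, nor is any use of the molecular identifiers. The authors deposited a p-value for each peak, all under 0.05, with no adjustment stated. Each deposited name ends in a whole number, read here as the read number, which the lists do not state.

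Lines with the same interval and strand were counted once. Gene IDs were tied to RefSeq genes (GRCh38.p14) on the same strand that held at least 90% of their peak centres. Gene IDs that could not be tied to a single gene have no name here. They were left out of all ranks and comparisons among named genes. Merging and overlap were tested on simulated lists. The work used Python 3.11.15, pandas 2.3.3 and scipy 1.17.1. Members and gene lists were chosen with earlier results of these data known. Named genes were NUCKS1, its neighbours, both lists and the 5 nearest by distance, and named regions the 5 with the highest mean read number. Other genes are marked in the text. With 1 group and no control, no test was made. Nothing in the labels says whether replicates came from separate cultures, so the SD may be technical. Alternatives were the strictest 50% of each list, a read number of 5 or more, 50% overlap, joined touching peaks, 2 or more replicates, assignment by position and each replicate left out.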

Additional observations from a re-analysis of the deposited data

How the results depend on the processing

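Joining touching peaks gave 14.7 peaks per replicate in place of 20.7, a summed read number of 1329 in place of 1868, and 66.9% in place of 59.5% for the final 20% of the gene, which was 67.8% as a share of peaks. Requiring 50% of both peaks gave an overlap of 61.9% and a rank of 2 by regions in place of 4. The strictest 50% of each list, a read number of 5 or more and assignment by position left every NUCKS1 peak in place. These settings could not have removed any. The lowest NUCKS1 read number was 38, and all of its peaks were known to lie in its interval. In replicates 1, 2 and 3, 99.3%, 99.4% and 99.1% of other nuclear-encoded peaks had a p-value above the largest in NUCKS1. The regions numbered 10 to 14 over all alternatives. With each replicate left out, peaks per replicate ranged from 19.5 to 22.0, the overlap from 79.8% to 88.7%, and the final 20% from 57.9% to 62.0%. No paired analysis was possible because the samples form 1 group. Depth is known only as read numbers in peaks, and stretches of NUCKS1 below about 38 reads are not visible.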

Other observations

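At least 1 edge at the same nucleotide in every list was found in regions of 106 gene IDs. NUCKS1 was among 11 with 3 or more such regions, and 6 of those had more than NUCKS1.

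SCD shared several features with NUCKS1, and was picked out after its values were seen. Its lowest read numbers came next to those of NUCKS1 among protein-coding genes with 10 or more peaks in every replicate. It had a peak-free first 78.9% of the gene, 86.6% of its read numbers in the final 20% and 7 regions found in all replicates.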
